A study of Homo sapiens with 30 samples.

Results

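Keratins are the intermediate filament proteins of epithelial cells, and the transcripts of 10 of them were followed in human bronchial epithelial cells after contact with birch pollen: KRT5, KRT6A, KRT7, KRT8, KRT14, KRT17, KRT18, KRT19, KRT80 and KRT81. Members were chosen by the gene name that the array files give each oligonucleotide probe, which took 10 of 49932 gene names. They hold 15 probes on the arrays, of which 14 were tested. The probe not tested is a KRT81 probe present on the design of 1 array only. The cells were BEAS-2B, an immortalized line from human bronchial epithelium, kept with air above and medium below for 24 h before exposure. Pollen groups received 10 mg of whole birch pollen dispersed with air of 0.5 bar. Mock groups went through the same dispersion without pollen reaching the cells. RNA was taken 5 times, first at 10 min and 55 min, then after 2h25 min and 6h50 min, and last at 24 h. Each exposure and time had 3 arrays, 30 in all. All groups are of this 1 line at 1 dose, and the study repeated exposures on different days. Mock arrays carry the air handling and the time in culture as well.

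Keratins build filaments as obligate pairs of a type I (acidic) and a type II (basic to neutral) protein. KRT5 and KRT14 form the pair of basal cells in stratified and airway epithelium. KRT6A pairs with KRT16 and KRT17, which are induced in wounded or stressed epithelium. KRT8 and KRT18 are the pair of simple epithelium, and KRT7 and KRT19 accompany them in ducts and airways. KRT80 is a type II keratin found near desmosomes in differentiating epithelium, and KRT81 is a type II keratin known from hair. Type II genes lie on chromosome 12, type I genes on chromosome 17, and KRT18 is the type I gene on chromosome 12, as the probe positions in hg19 also show.

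Probe sequence matters for keratins, because the members of a type have similar coding sequence. Among the 14 probes of 60 bases, 2 were more than 70% identical, over at least 30 overlapping bases, to a probe of another keratin gene or pseudogene on the array. The other 12 were at most 60% identical to their closest one. Probes were compared with other probes only and not with whole transcripts. A low identity here therefore does not show that a probe binds no other keratin transcript. The 2 probes above 70% are shown with their look-alike, since their values for KRT14 and KRT17 are described below beside those of the look-alikes. Capitals mark bases identical in the aligned pair. The downstream KRT14 probe, A_33_P3345534, lies at chr17:39740013-39740072 on the minus strand (hg19). Its look-alike, the KRT16 probe A_23_P38537 at chr17:39767216-39767364 on the minus strand, has 32 of 43 overlapping bases in common, 74.4%.
KRT14 downstream: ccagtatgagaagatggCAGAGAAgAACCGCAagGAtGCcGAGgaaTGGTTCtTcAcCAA
KRT16: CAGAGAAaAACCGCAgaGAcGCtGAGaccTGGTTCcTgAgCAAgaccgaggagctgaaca

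The KRT17 probe, A_23_P96158 at chr17:39776976-39777035 on the minus strand, has 51 of 56 overlapping bases, 91.1%, in common with the probe of the pseudogene KRT17P2 (A_24_P882732, chr17:18333974-18334033, plus strand).
KRT17: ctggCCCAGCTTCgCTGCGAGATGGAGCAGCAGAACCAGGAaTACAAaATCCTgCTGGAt
KRT17P2: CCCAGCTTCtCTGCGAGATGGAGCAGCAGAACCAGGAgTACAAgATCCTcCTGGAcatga

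A further KRT14 probe, A_21_P0011517, lies 2497 bases upstream in the transcript's direction, at chr17:39742569-39742628 on the minus strand. It had no look-alike over the same limit among the keratin probes, so it is printed without capitals. Whether it matches transcripts of other keratins was not tested.
KRT14 upstream: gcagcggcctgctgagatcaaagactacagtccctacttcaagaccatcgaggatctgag

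Each level below is the log2 of the processed signal of a probe relative to the 75th percentile of its array, so that 1 unit is a doubling, and levels of different probes are not set against each other. A probe was called changed at a Benjamini-Hochberg adjusted p under 0.05 in limma over all 32100 tested probes with a change of at least 1.1-fold. Of the member probes, 13 were well above background on every array that carries them, and the upstream KRT14 probe on 28 of 29. On 1 array, replicate 1 of pollen at 55 min, the probe layout is a different one without the tested KRT81 probe and the upstream KRT14 probe, so these have 2 pollen arrays at 55 min. Arrays were spread over 5 slides. The 10 min arrays shared slide 1, the 24 h arrays shared slide 4, and the 6h50 min arrays filled slide 5, so that 6h50 min and its slide cannot be told apart. Pollen and mock at 10 min, 6h50 min and 24 h lay within 1 slide each. Besides the 10 min arrays, slide 1 held only replicate 1 of mock at 55 min. In a fit with the slide as a fixed term, that 1 array alone links slide 1 to the other slides. Each 24 h difference from 10 min in that fit, in either exposure, depends on it. The share of probes well above background was between 44.7% and 59.3% per array, and 5 of the 6 arrays at 6h50 min were below 49%.

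Epithelial markers were detected, beside most mesenchymal ones. The epithelial list holds KRT8, KRT18 and KRT19, and the basal list KRT5 and KRT14. All 9 epithelial markers, with EPCAM and CDH1 among them, were well above background on the 30 arrays. Of 8 airway basal markers, 7 were, and TP63, the basal cell factor, was on 21 of 30 arrays. Ciliated markers were mixed: DNAI1, DNAH5 and TEKT1 were above background on no array, FOXJ1 on 8, PIFO on 17, RSPH1 on 29 and CAPS on 30. So were secretory ones, with MUC5B on no array, BPIFB1 on 1 and LYPD2 on 5. The secretory markers SCGB3A1 and SCGB3A2 were above background on 30 arrays, SCGB1A1 on 29 and MUC5AC on 27. Of 9 mesenchymal markers, 7 were above background on every array, with VIM at a mean of 6.44, and COL3A1 on none. Of the 4 leukocyte markers on the arrays, PTPRC was above background on 30 arrays and TPSAB1 on none. None of the tested markers was called between pollen and mock at any time in limma. Between 24 h and 10 min in mock cells, 5 of 9 epithelial markers were called, 2 of them higher, EPCAM by 0.92 and CLDN4 by 0.94 on the log2 scale. At the same comparison 5 of 8 basal, 1 of 3 ciliated, 0 of 4 secretory, 2 of 8 mesenchymal and 0 of 2 leukocyte markers were called. The counts in pollen cells were 5, 5, 1, 1, 1 and 0. Of all tested probes, 37.5% were called in this comparison in mock cells and 35.3% in pollen cells.

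The keratins differed between times and not detectably between pollen and mock cells. The 24 h arrays and the 10 min arrays lay on different slides. With the slide as a fixed term, which leaves out 6h50 min, 2 member probes in mock and 1 in pollen cells were called at 24 h. The counts that follow are without that term. Against 10 min, 9 of 14 member probes were called at 24 h in mock cells, 8 lower and 1 higher, beside the same 37.5% of all tested probes. In pollen cells 10 of 14 were called at 24 h, 9 lower and 1 higher, beside 35.3% of all probes. At 6h50 min the counts were 10 in mock cells, beside 38.4% of all probes, and 6 in pollen cells, beside 42.9%. The median change of the member probes at 24 h was -0.78 in mock cells and -0.73 in pollen cells, and the median of all probes -0.06 and -0.07. At 6h50 min the member medians were -0.63 and -0.38 against -0.17 in both exposures over all probes. Before that, no member probe was called at 55 min in mock (0.187% of all probes) or pollen cells (0.841%), none at 2h25 min in mock cells (0.171%), and 1 in pollen cells (2.07%). The smallest adjusted p of a member there was 0.5275, 0.2059 and 0.1815 in these comparisons without a call, and KRT80 was the probe called. Arrays that do not overlap with those of 10 min were common over all tested probes, 53.1% at 24 h and 51.7% at 6h50 min in mock cells and 48.5% and 56.9% in pollen cells, and the member probes numbered 10, 10, 10 and 8 of 14. Calls at 24 h of KRT5, KRT6A and the upstream KRT14 probe held in both exposures under each of the other scalings tried, while at 6h50 min the counts fell to 1 in either exposure when each array was scaled by the percentile of its own probes. With quantile normalization they were 3 in either. Under these scalings the median of all probes in pollen against mock at 55 min moved to -0.60 and -0.53. There 1 array is of the other design. All arrays share 1 estimate of the spread per probe, so this shift also bears on comparisons of other times. Its part in the lost calls was not tested.

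**Figure D1:**
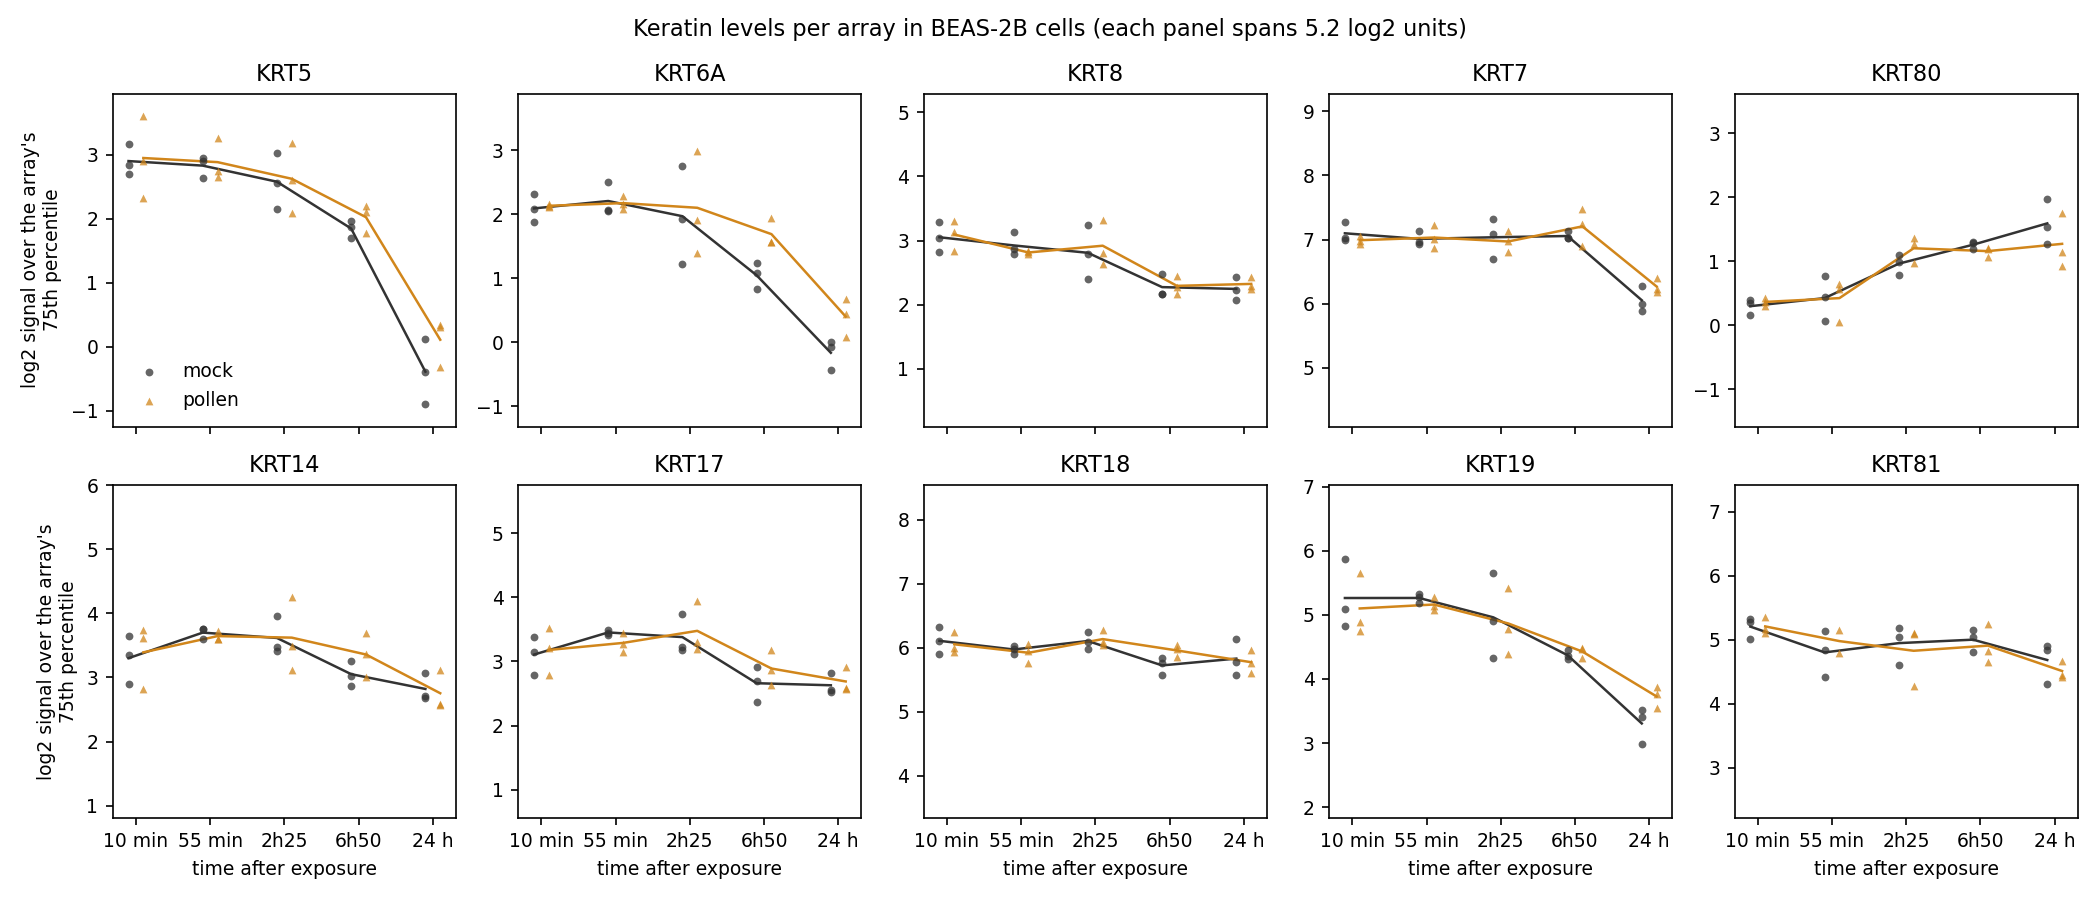
Level of each keratin gene (y axis, log2 signal over the 75th percentile of the array; each panel spans the same number of log2 units) on every array of mock (dark circles) and pollen cells (orange triangles) at the 5 times (x axis, not to scale). Lines join group means: KRT5, KRT6A and KRT19 were lowest at 24 h, KRT80 was higher at the late times, and KRT18 stayed within a narrow range.

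KRT5, the type II keratin of basal cells, had a mean level of 2.90 ± 0.24 (SD, n = 3) in mock cells at 10 min and of -0.39 ± 0.51 at 24 h. The 3 mock arrays gave 3.16, 2.70 and 2.84 at 10 min, 1.70, 1.96 and 1.88 at 6h50 min, and 0.12, -0.90 and -0.39 at 24 h. The 3 pollen arrays gave 3.60, 2.33 and 2.91 at 10 min, 2.19, 2.10 and 1.77 at 6h50 min, and 0.31, -0.32 and 0.34 at 24 h. In both exposures every array at 6h50 min lay below every array at 10 min, and every array at 24 h below every array at 6h50 min. At 55 min and 2h25 min the arrays overlapped with those at 10 min. The transcript was 9.76-fold lower at 24 h than at 10 min in mock cells (log2 difference -3.29, SE 0.31, limma adjusted p = 8.089e-08). In pollen cells it was 7.14-fold lower (-2.84, limma adjusted p = 8.525e-07). The decrease was smaller at 6h50 min, 2.08-fold and 1.90-fold (limma adjusted p = 0.01098 and 0.02041), and the call in pollen cells was lost without the 10 min pollen replicate 1 array (-0.60) or the 6h50 min pollen replicate 3 array (-0.80). With the slide as a fixed term, the difference at 24 h was -3.15 in mock cells (limma adjusted p = 0.02577) and -2.70 in pollen cells (limma adjusted p = 0.06546), so that the second call ended. On the slide shared by 24 h and the third replicate of 2h25 min, the 24 h arrays were lower by -2.95 in mock and -2.50 in pollen cells.

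The 2 probes of KRT14, the type I partner of KRT5, gave different changes. For the upstream probe, mock arrays gave -1.35, -1.94 and -1.96 at 10 min, -3.90, -3.50 and -3.17 at 6h50 min, and -5.77, -5.92 and -6.69 at 24 h, the last of these not well above background. Pollen arrays gave -1.11, -1.56 and -1.93 at 10 min and -5.42, -6.02 and -5.88 at 24 h. The groups at 10 min, 6h50 min and 24 h did not overlap in either exposure. The difference at 24 h was -4.38 (SE 0.33, 20.8-fold, limma adjusted p = 7.306e-09) in mock and -4.24 (18.9-fold, limma adjusted p = 1.863e-08) in pollen cells. The lowest level well above background was between -7.43 and -6.05, depending on the array. The 24 h levels of this probe lie near it, so the exact folds are uncertain. At 6h50 min it was -1.78 and -1.68 (limma adjusted p = 0.0003386 and 0.0004984). With the slide as a fixed term the 24 h differences were -4.19 and -4.05 (limma adjusted p = 0.007832 and 0.01385).

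For the downstream KRT14 probe, mock arrays gave 3.65, 3.35 and 2.90 at 10 min and 3.07, 2.71 and 2.69 at 24 h. Pollen arrays gave 3.74, 3.61 and 2.82 at 10 min and 3.11, 2.56 and 2.58 at 24 h. The groups overlapped. The differences were -0.48 (95% interval -1.03 to 0.07, limma adjusted p = 0.161) and -0.64 (-1.19 to -0.09, limma adjusted p = 0.06499), and neither was called. The pollen difference of KRT14 by this probe was called with the replicate number as a block (limma adjusted p = 0.044), without the 10 min pollen replicate 3 array (-0.92) and without the 24 h pollen replicate 1 array (-0.82). Its mock difference was called in a fit with array weights, where all 14 member probes were called at 24 h in mock cells. The interval of this probe and that of the upstream probe, -5.05 to -3.70 in mock cells, lie apart, though the upstream probe was near the background at 24 h.

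**Figure D2:**
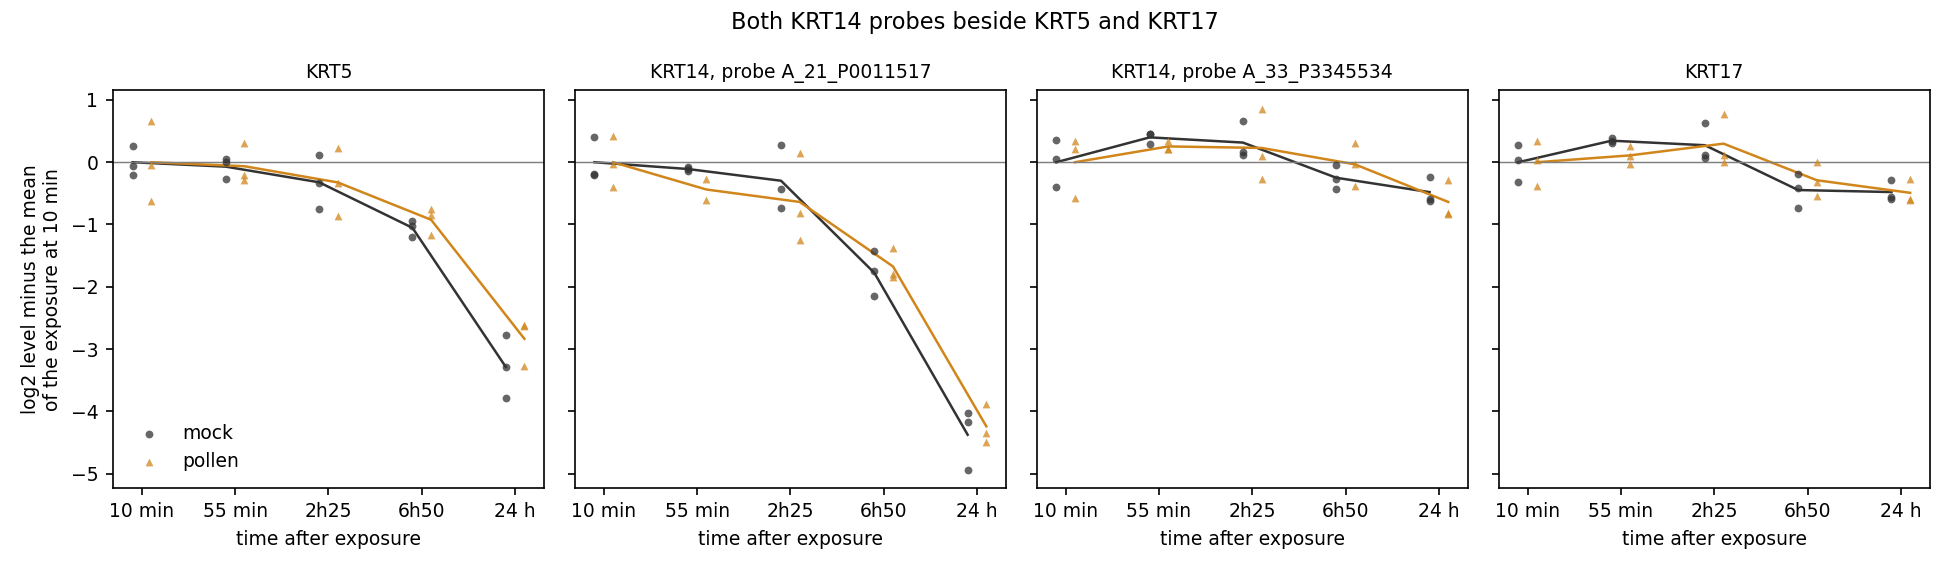
Level of KRT5, both KRT14 probes and KRT17 on each array minus the mean of the same exposure at 10 min (y axis, log2; x axis the 5 times, not to scale; dark circles mock, orange triangles pollen, lines group means). KRT5 and the upstream KRT14 probe (A_21_P0011517) were down by several log2 units at 24 h, while the downstream KRT14 probe (A_33_P3345534) and KRT17 stayed within 1 unit of the 10 min mean in every group mean.

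KRT17, a stress-associated type I keratin, changed at 24 h in mock cells by nearly the same amount as the downstream KRT14 probe. In pollen cells its estimate was the smaller one, with overlapping intervals, and these probes were not tested against each other. From 10 min to 6h50 min the KRT17 mean went from 3.11 to 2.66 in mock and from 3.18 to 2.89 in pollen cells. The mean of the downstream KRT14 probe went from 3.30 to 3.05 and from 3.39 to 3.36. Mock arrays gave 3.38, 3.15 and 2.79 at 10 min and 2.82, 2.52 and 2.55 at 24 h. Pollen arrays gave 3.53, 3.22 and 2.79 at 10 min and 2.91, 2.59 and 2.57 at 24 h. At 24 h the arrays overlapped with those at 10 min, with differences of -0.48 (-0.92 to -0.03, limma adjusted p = 0.08421) and -0.49 (-0.94 to -0.05, limma adjusted p = 0.07912). Both were called once the lowest 10 min array, replicate 3, was left out (-0.64 in mock and -0.68 in pollen cells). The mock difference was also called in the fit with array weights. The KRT17P2 probe, which shares the capitals printed above, differed by -0.54 and -0.57 at 24 h (limma adjusted p = 0.08562 and 0.07217). The KRT16 probe differed by -1.41 and -1.19 (limma adjusted p = 0.0004222 and 0.002347). Whether transcripts of one gene bound the probe of another was not tested.

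KRT6A, the type II partner of KRT16 and KRT17, had a mean of 2.09 ± 0.22 (SD, n = 3) at 10 min in mock cells. Mock arrays gave 2.31, 1.88 and 2.09 at 10 min, 0.83, 1.24 and 1.08 at 6h50 min, and 0.01, -0.42 and -0.07 at 24 h. Pollen arrays gave 2.12, 2.12 and 2.16 at 10 min, 1.57, 1.94 and 1.56 at 6h50 min, and 0.44, 0.09 and 0.68 at 24 h. Arrays of 10 min, 6h50 min and 24 h did not overlap in either exposure, and at both late times each pollen array lay above each mock array. At 24 h the transcript was 4.77-fold lower in mock cells (log2 difference -2.25, SE 0.32, limma adjusted p = 8.647e-06) and 3.32-fold lower in pollen cells (-1.73, limma adjusted p = 0.0002275). By 6h50 min KRT6A was 2.06-fold lower in mock cells (-1.04, limma adjusted p = 0.01286), a call lost without the 6h50 min mock replicate 1 array (-0.94). In pollen cells the 6h50 min difference was -0.44 (-1.09 to 0.21, limma adjusted p = 0.2589). At 2h25 min KRT6A varied most within a group, from 1.23 to 2.76 in mock and from 1.40 to 2.99 in pollen cells. With the slide as a fixed term neither 24 h call held (-2.29 and -1.76, limma adjusted p = 0.09776 and 0.2479).

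KRT8, the type II keratin of simple epithelium, was lower at both late times. For the probe that stands for the gene, A_23_P14072, mock arrays gave 2.83, 3.04 and 3.30 at 10 min, 2.17, 2.16 and 2.49 at 6h50 min, and 2.43, 2.07 and 2.23 at 24 h. Pollen arrays gave 3.14, 2.84 and 3.30 at 10 min, 2.27, 2.16 and 2.45 at 6h50 min, and 2.44, 2.29 and 2.25 at 24 h. Both late groups lay below 10 min on every array and overlapped with each other. The differences at 24 h were -0.81 (1.75-fold, limma adjusted p = 0.001661) in mock and -0.77 (1.71-fold, limma adjusted p = 0.002905) in pollen cells. At 6h50 min they were -0.78 and -0.80 (limma adjusted p = 0.002908 and 0.002017). Neither 24 h call held with the slide as a fixed term (-0.67 and -0.64, limma adjusted p = 0.4267 and 0.4913) or with each array scaled by its own probes (-0.71 and -0.68, limma adjusted p = 0.2148 and 0.2563).

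The other KRT8 probes went the same way. The probe A_24_P67395, whose position spans an intron, changed by -1.03 and -1.52 at 24 h and by -1.26 and -1.55 at 6h50 min, all 4 called. Without the 10 min mock replicate 3 array its mock calls were lost (-0.83 and -1.05 at 24 h and 6h50 min). The 24 h mock call of this KRT8 probe was also lost without the 24 h mock replicate 1 (-1.02) or replicate 2 array (-0.93). Neither 24 h call of it held with the slide as a fixed term (-1.06 and -1.55, limma adjusted p = 0.4411 and 0.2703). At 55 min it read -4.04 on the pollen array of the other design and -2.62 and -2.47 on the other 2. The probe A_33_P3372368 is assigned to a non-coding KRT8 transcript and lies 2277 bases before the nearest KRT18 probe on the opposite strand, 48246 bases from the nearest other KRT8 probe. It changed by -0.75 and -0.74 at 24 h (limma adjusted p = 0.002547 and 0.00344) and by -0.61 at 6h50 min in mock cells (limma adjusted p = 0.01239), a call lost without the 10 min mock replicate 3 array (-0.49). In pollen cells its 6h50 min difference was -0.31 (limma adjusted p = 0.1748). Its 24 h calls also ended with the slide as a fixed term (-1.04 and -1.03, limma adjusted p = 0.17 and 0.2159). For both of these KRT8 probes, each late call ended with quantile normalization, with or without normexp, and with scaling by the array's own probes.

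KRT18, the type I partner of KRT8, had the smallest range of the 10 genes. For the probe A_32_P151544 the 10 group means spanned 0.41 log2 units, less than for most probes (the 10.3th percentile of 32100). Mock arrays gave 5.90, 6.10 and 6.32 at 10 min and 6.14, 5.77 and 5.58 at 24 h. Pollen arrays gave 5.93, 5.99 and 6.24 at 10 min and 5.96, 5.76 and 5.61 at 24 h. These groups overlapped, and the differences were -0.28 (-0.56 to 0.01, limma adjusted p = 0.1187) and -0.28 (-0.57 to 0.01, limma adjusted p = 0.1186). This KRT18 probe was called lower at 6h50 min in mock cells (-0.38, limma adjusted p = 0.03246) and not in pollen cells (-0.10, limma adjusted p = 0.5903). The probe A_24_P42136 was called lower at 6h50 min in both, by -0.66 and -0.45 (limma adjusted p = 0.005478 and 0.04017), and not at 24 h (-0.37 and -0.30). The mock call of the first probe was lost without replicate 2 (-0.39) or 3 (-0.28) of 10 min, or without replicate 1 (-0.31) or 2 (-0.40) of 6h50 min. The pollen call of the other was lost without replicate 2 (-0.40) or 3 (-0.33) of 10 min, or without any 1 array of 6h50 min (-0.44 to -0.45). Without the 24 h mock replicate 1 array, both probes were called lower at 24 h in mock cells (-0.43 and -0.55). The fit with array weights also called both there. The mock calls of both probes at 6h50 min are to be read beside the -0.17 by which the median of all probes moved at that time.

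KRT7, a type II keratin of ducts and airways, changed late. Mock arrays gave 6.99, 7.03 and 7.28 at 10 min, 7.02, 7.13 and 7.02 at 6h50 min, and 6.27, 5.88 and 6.00 at 24 h. Pollen arrays gave 6.94, 6.98 and 7.05 at 10 min, 6.90, 7.24 and 7.48 at 6h50 min, and 6.40, 6.22 and 6.18 at 24 h. The first 4 times overlapped, and at 24 h every array was below all of them. The difference at 24 h was -1.05 (2.06-fold, SE 0.15, limma adjusted p = 1.385e-05) in mock and -0.72 (1.65-fold, limma adjusted p = 0.0008902) in pollen cells. At 6h50 min it was -0.04 (-0.36 to 0.27) and 0.22 (-0.10 to 0.53). The 24 h calls of KRT7 ended with the slide as a fixed term (-1.15 and -0.82, limma adjusted p = 0.05384 and 0.1975) and with scaling by the array's own probes (-0.95 and -0.63, limma adjusted p = 0.09159 and 0.3084).

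KRT19, the type I keratin without a tail domain, was already lower at 6h50 min. Mock arrays gave 5.09, 4.82 and 5.88 at 10 min, 4.31, 4.45 and 4.36 at 6h50 min, and 3.41, 3.52 and 2.99 at 24 h. Pollen arrays gave 4.90, 4.75 and 5.65 at 10 min, 4.33, 4.49 and 4.46 at 6h50 min, and 3.76, 3.87 and 3.55 at 24 h. The 3 times did not overlap in either exposure. At 24 h KRT19 was 3.89-fold lower in mock (-1.96, SE 0.29, limma adjusted p = 1.785e-05) and 2.59-fold lower in pollen cells (-1.37, limma adjusted p = 0.0009532). At 6h50 min the difference was -0.89 in mock cells (limma adjusted p = 0.01987) and -0.67 in pollen cells (limma adjusted p = 0.06561). The mock call at 6h50 min was lost without the 10 min mock replicate 3 array, the highest one (-0.59), and without the 6h50 min mock replicate 1 array (-0.86). In pollen cells KRT19 was called at 6h50 min without the 10 min pollen replicate 2 array (-0.85). On the slide shared with 2h25 min replicate 3, the 24 h arrays were lower by -1.61 in mock and -1.06 in pollen cells. With the slide as a fixed term neither 24 h call of KRT19 held (-1.83 and -1.25, limma adjusted p = 0.1656 and 0.4106), and scaling by the array's own probes ended the pollen call (-1.28, limma adjusted p = 0.05129).

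KRT80 was the only member called higher. Mock arrays gave 0.39, 0.15 and 0.35 at 10 min, 0.99, 0.79 and 1.103 at 2h25 min, 1.29, 1.19 and 1.29 at 6h50 min, and 1.98, 1.27 and 1.53 at 24 h. Pollen arrays gave 0.36, 0.43 and 0.30 at 10 min, 0.97, 1.36 and 1.27 at 2h25 min, 1.21, 1.06 and 1.197 at 6h50 min, and 1.74, 0.93 and 1.14 at 24 h. From 2h25 min on, every array lay above every array of 10 min. At 2h25 min 1 of 14 member probes did not overlap with 10 min in either exposure. Over all tested probes the share was 20.9% in mock and 24.6% in pollen cells. The 24 h difference was 1.29 (2.45-fold, SE 0.20, limma adjusted p = 2.995e-05) in mock and 0.91 (1.88-fold, limma adjusted p = 0.001402) in pollen cells. Already at 6h50 min the differences were 0.96 and 0.79 (limma adjusted p = 0.001015 and 0.003728). At 2h25 min it was 0.84 in pollen cells (1.79-fold, limma adjusted p = 0.02873) and 0.66 in mock cells (limma adjusted p = 0.1815), and the pollen call was lost without any single one of its 6 arrays (0.76 to 0.95). On the slide shared with replicate 3 of 2h25 min, the 24 h arrays differed from that replicate by 0.49 in mock and -0.001 in pollen cells. There all 3 mock arrays of 24 h lay above the 2h25 min array, and the pollen arrays lay on both sides of it. With the slide as a fixed term the 24 h differences were 0.60 and 0.21 (limma adjusted p = 0.468 and 0.8382). The pollen call of KRT80 at 24 h also ended with quantile normalization (0.88, limma adjusted p = 0.1746) and with scaling by the array's own probes (1.00, limma adjusted p = 0.1379).

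KRT81, the hair type II keratin, gave 5.02, 5.32 and 5.28 on mock arrays at 10 min and 4.84, 4.30 and 4.90 at 24 h. Pollen arrays gave 5.10, 5.36 and 5.16 at 10 min and 4.67, 4.45 and 4.41 at 24 h. All arrays at 24 h lay below those at 10 min within each exposure. The pollen difference was called (-0.70, 1.62-fold, limma adjusted p = 0.02089) and was lost without the 10 min pollen replicate 2 array (-0.62), the 24 h pollen replicate 2 (-0.67) or replicate 3 array (-0.65), and with the slide as a fixed term (-1.66, limma adjusted p = 0.05479). The mock difference was -0.52 (-0.99 to -0.05, limma adjusted p = 0.07538), and it was called in the fit with array weights.

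**Figure D3:**
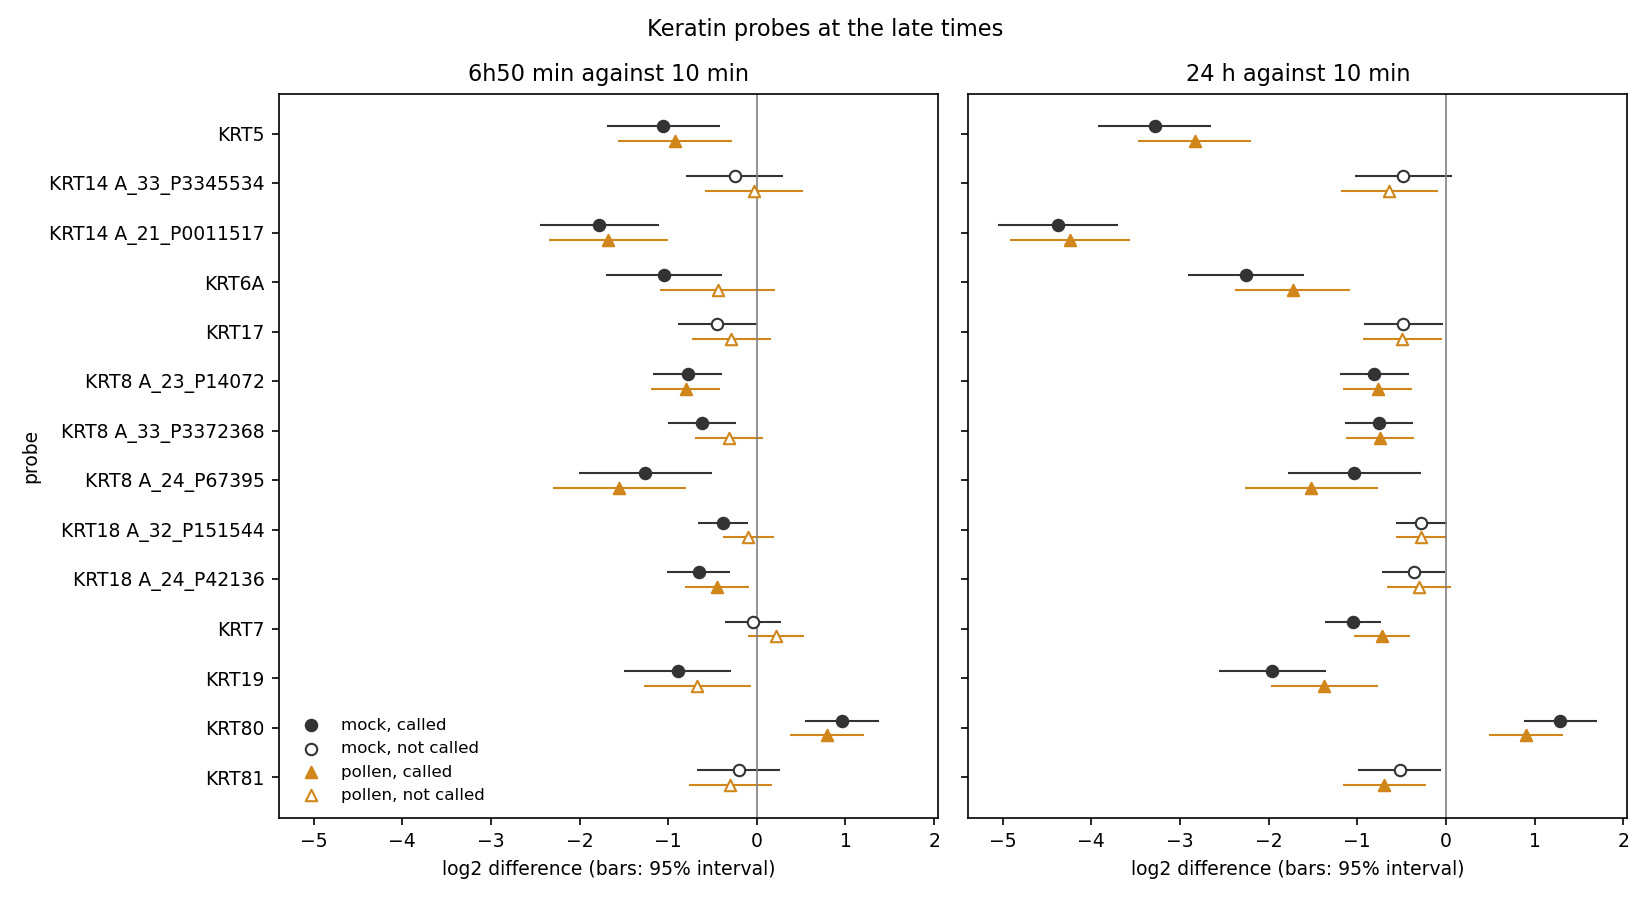
Difference from 10 min (x axis, log2, bars are 95% intervals from limma) of the 14 keratin probes (y axis) at 6h50 min and 24 h in mock (dark circles) and pollen cells (orange triangles), filled where called. KRT80 is the only probe called above 0, and the largest decreases at 24 h are those of the upstream KRT14 probe, KRT5 and KRT6A.

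Ordered by how far the 10 group means spanned, KRT5 came first with 3.33 log2 units (the 99.6th percentile of all tested probes, each gene by its own probe). KRT6A followed with 2.37, KRT19 with 1.96, KRT80 with 1.29 and KRT7 with 1.15. KRT14 by its downstream probe spanned 0.95, KRT17 and KRT8 0.85 each, KRT81 0.70 and KRT18 0.41, beside a median of 0.85 over all tested probes. For the 5 members spanning at least 1 unit, the 2 genes with the closest centred profile over the 10 group means were named by the root mean square difference in log2 units. These were PDE6A (0.133) and BBOX1 (0.137) for KRT5, MT1X (0.103) and KRT6C (0.134) for KRT6A, and FGFBP3 (0.058) and ANAPC4 (0.060) for KRT7. For KRT19 they were TMEM144 (0.086) and ZNF575 (0.091), and for KRT80 TNFRSF12A (0.107) and PXDC1 (0.136).

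Pollen against mock answers whether the exposure itself moved these transcripts. No member probe was called at any of the 5 times in limma fitted without pairing, and none had an unadjusted p under 0.05. With the replicate number as a block no member probe was called at 10 min, 2h25 min or 24 h, while over all probes 44 in place of 11 were called at 2h25 min and 6 in place of 1 at 24 h. Over all 32100 probes, the share called was 0% at 10 min, 0.00312% at 55 min, 0.0343% at 2h25 min, 0.0436% at 6h50 min and 0.00312% at 24 h. The test of whether the pollen effect differed between times called 0.00312% of all probes and no member, with an adjusted p of 1 for each member probe and an unadjusted p of at least 0.3990. A call in one exposure and not in the other at the same time is therefore not shown to differ between them. The median pollen effect of the 14 probes was 0.04, -0.05, 0.01, 0.16 and 0.00 at the 5 times, and that over all probes 0.01, -0.01, -0.03, 0.00 and -0.00.

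The groups lay apart without a call in a few cases. KRT6A was higher on all 3 pollen arrays than on all mock arrays at 6h50 min by 0.64 (95% interval -0.01 to 1.29, unadjusted p = 0.05325, limma adjusted p = 0.6821). With the replicate number as a block this difference was called (limma adjusted p = 0.02878), the pairs of equal number differing by 0.74, 0.70 and 0.49, though over all probes only 1 of the 3 pairs at 6h50 min deviated together (correlations 0.056, 0.199 and -0.041). The study ran a mock control in each run, and the labels do not say whether equal numbers mark a run. At 24 h it was higher by 0.56 (-0.09 to 1.22, limma adjusted p = 1). KRT19 at 24 h differed by 0.42 (-0.18 to 1.02) in the same direction on every array. Both KRT18 probes did so at 6h50 min, by 0.23 (-0.05 to 0.52) and 0.07 (-0.29 to 0.43). For KRT5 at 24 h the effect was 0.50 (-0.14 to 1.14), with overlapping arrays. KRT80 at 24 h had -0.32 (-0.74 to 0.10). The intervals of KRT8 at 24 h (-0.31 to 0.47), KRT7 (-0.10 to 0.53), KRT17 (-0.39 to 0.51) and KRT81 (-0.64 to 0.30) come from the unpaired fit. They show the size of change that 3 arrays per group could not tell from 0 in that fit. Non-overlapping member probes numbered 0, 0, 0, 3 and 2 of 14 at the 5 times, where 5.83%, 10.8%, 6.97%, 11.7% and 8.8% of all tested probes did not overlap.

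**Figure D4:**
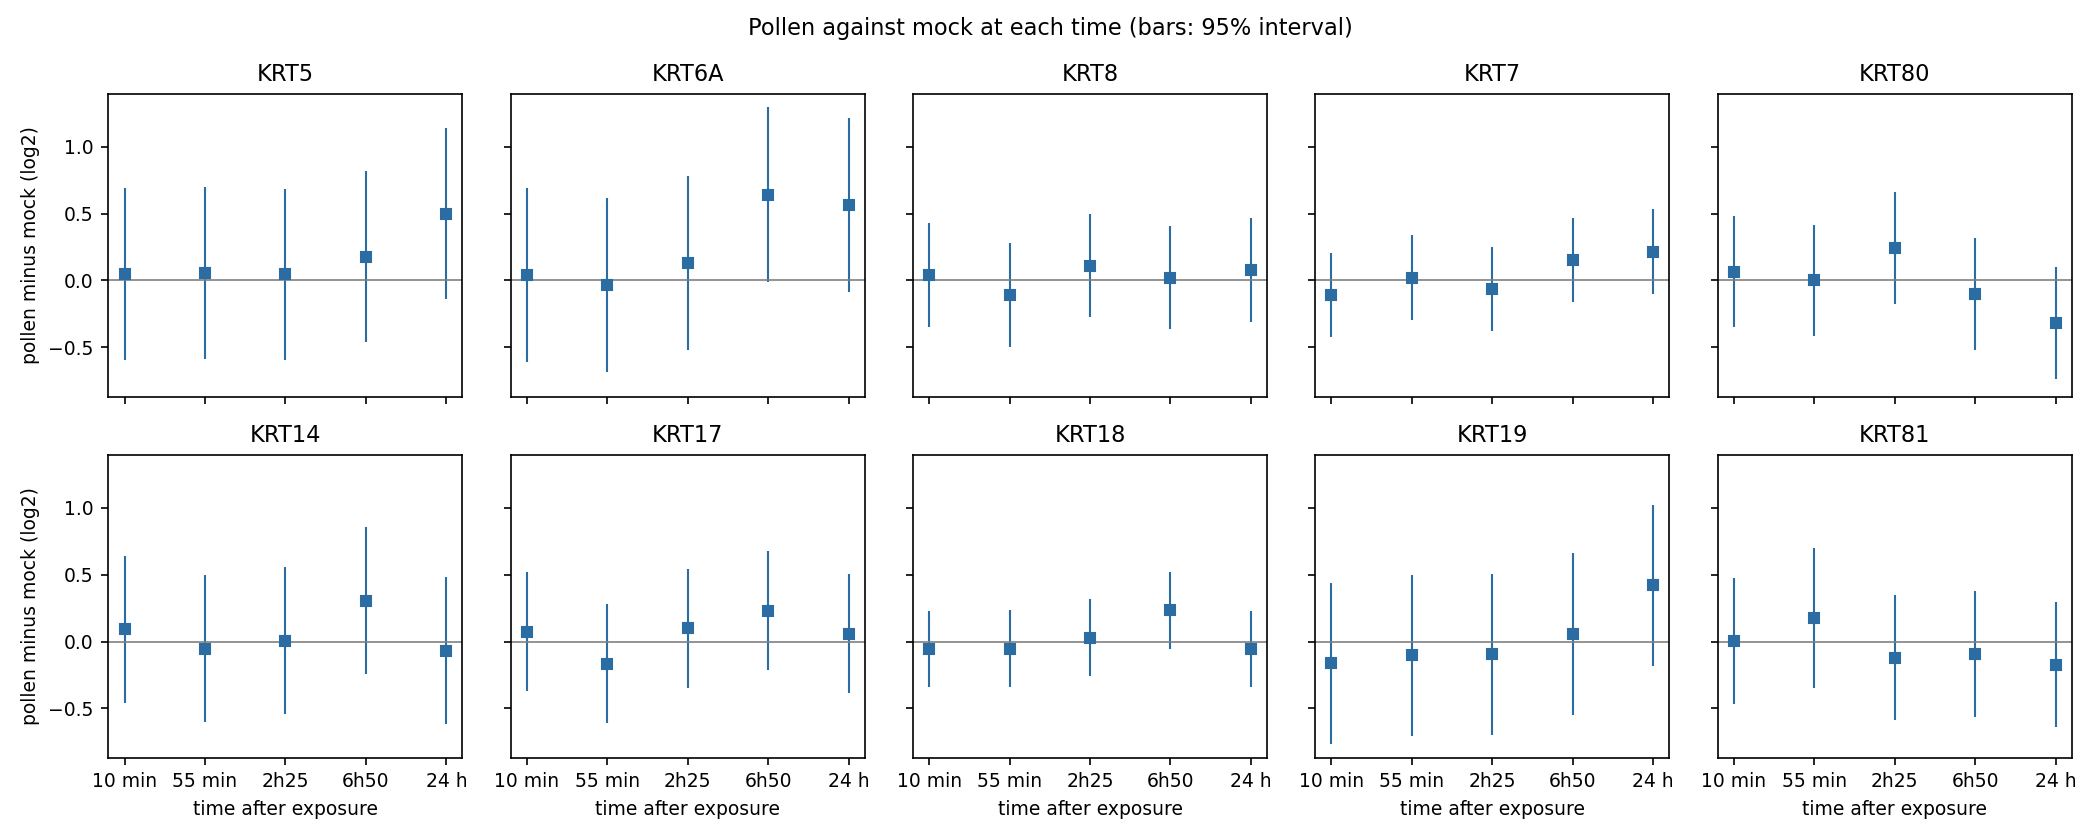
Pollen minus mock (y axis, log2, bars are 95% intervals from the unpaired limma fit) at each of the 5 times (x axis, not to scale) for the 10 keratin genes, each by its own probe. Every interval holds 0, and KRT6A at 6h50 min comes nearest to leaving it out, with a lower end of -0.01.

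The other keratin genes on the arrays numbered 45, of which 26 were tested, 11 were above background on all arrays and 9 on none. At 24 h 9 of the 26 were called in mock cells, all lower, and 12 in pollen cells, 11 lower, beside 37.5% and 35.3% of all tested probes, 6418 of 12038 and 6260 of 11342 calls being lower. At 6h50 min the counts were 12 with 11 lower and 16 with 16 lower, beside 38.4% and 42.9% of all probes, 8124 of 12323 and 9070 of 13761 calls being lower, and the list's median was -0.86 and -1.14, against -0.67 and -0.90 at 24 h. KRT6C, a close relative of KRT6A, changed by -1.91 and -1.64 at 24 h (limma adjusted p = 0.0002156 and 0.001195). KRT6B was at least 6.13-fold lower in mock cells at 24 h, where it was not well above background, and changed by -2.41 in pollen cells (limma adjusted p = 0.0002066). Bounds of this kind set the mean of the brighter group against the lowest signal that was well above background on the dim arrays. KRT15, a basal keratin, changed by -1.76 and -1.53 at 24 h (limma adjusted p = 0.000468 and 0.001985) and by -2.12 and -1.80 at 6h50 min. KRT38, a hair keratin, was at least 8.30-fold lower at 24 h than at 10 min in mock and at least 8.08-fold in pollen cells, and KRT222 at least 2.37-fold and 2.72-fold. KRT23 was at least 2.90-fold lower in mock cells and -1.60 in pollen cells, though with the slide as a fixed term both turned upward (0.85 and 1.14). At 6h50 min KRT9, a keratin of palm and sole skin, had the largest change, -2.15 and -2.28.

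Of these other keratins, KRT79 was called higher at 24 h in pollen cells (1.92, limma adjusted p = 0.01264) and KRT10, of suprabasal skin, at 6h50 min in mock cells (0.48, limma adjusted p = 0.01414). KRT3 was called lower at 2h25 min in pollen cells (-1.50, limma adjusted p = 0.0452), a call that ended with the replicate number as a block (limma adjusted p = 0.05465). KRT38 was the single probe of all those tested that was called between pollen and mock at 24 h (limma adjusted p = 0.04012). The KRT38 call was lost with every other scaling, without a filter on dim probes, with only the arrays of that time, with the slide as a fixed term, and without mock replicate 2 or 3 or pollen replicate 1 or 3 of 24 h (limma adjusted p between 0.1079 and 1). Its 6 arrays at 24 h were all below background, with log2 levels of -8.18, -8.68 and -8.96 in mock and -7.21, -7.71 and -6.90 in pollen cells, so no fold is given.

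Keratin filaments end on desmosomes and hemidesmosomes through linker proteins, and 21 such genes were all tested. For this and the next 3 lists, the shares of all tested probes called are again 37.5% in mock and 35.3% in pollen cells at 24 h, and 38.4% and 42.9% at 6h50 min. At 24 h 12 were called in mock cells, 10 lower and 2 higher, and 10 in pollen cells, 8 lower and 2 higher. EPPK1, the epiplakin gene, was higher in both (1.21 and 1.17, limma adjusted p = 0.0002338 and 0.0004307), as was FAM83H (0.47 and 0.54). DSG3, the desmoglein of basal layers, was lower by -1.04 and -0.58 (limma adjusted p = 0.0002444 and 0.02536), and the hemidesmosomal integrins ITGA6 and ITGB4 by -0.68 and -0.56 in mock and -0.42 and -0.38 in pollen cells. PKP1, a plakophilin, was at least 2.03-fold lower in mock cells at 24 h. At 6h50 min 7 were called in mock, 4 of them higher, and 8 in pollen cells, 4 of them higher, and JUP, the plakoglobin gene, was lower by -0.73 and -0.72. The list's median was -0.27 and -0.32 at 24 h and 0.12 and 0.08 at 6h50 min.

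Of 15 other intermediate filament genes, 10 were tested, and 6 were called at 24 h in either exposure, 2 higher and 4 lower. PRPH, which encodes the neuronal filament protein peripherin, rose by 1.78 in mock and 1.68 in pollen cells (limma adjusted p = 3.023e-07 and 1.123e-06), and INA, alpha-internexin, by 0.94 and 0.87. LMNB1, of the nuclear lamina, changed by -0.92 and -0.72, and VIM, the filament of mesenchymal cells and of many cultured lines, by -0.56 in mock cells (limma adjusted p = 0.01795). The lens gene BFSP1 changed by -1.17 and -0.91. At 6h50 min 5 were called in mock and 3 in pollen cells, with VIM at -0.78 and -0.53. The median at 24 h was -0.41 and -0.23.

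Of 17 factors known to act on keratin genes, 15 were tested. At 24 h 7 were called in mock cells, 5 higher and 2 lower, and 5 in pollen cells, 4 higher and 1 lower, with list medians of -0.07 and 0.08. CEBPA, a factor of epithelial differentiation, was higher by 1.12 and 0.88 (limma adjusted p = 8.905e-07 and 2.355e-05), and GRHL3 by 0.92 and 0.79, though in pollen cells GRHL3 turned to -0.072 with the slide as a fixed term. TP63, the factor on which basal keratins depend, was at least 2.75-fold lower in mock cells at 24 h and changed by -1.37 in pollen cells (limma adjusted p = 0.01263). At 6h50 min it was at least 2.71-fold lower in mock cells and changed by -1.38 in pollen cells. KLF4 was called higher in pollen cells at 55 min (0.87, limma adjusted p = 0.01943) and 2h25 min (0.99, limma adjusted p = 0.003385), where KLF5 (0.76) and CEBPB (0.54) were also called. The KLF5 call ended with the replicate number as a block (limma adjusted p = 0.05238). At 6h50 min 7 factors were called in mock cells, 4 higher, and 6 in pollen cells, 4 higher.

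Of 16 squamous differentiation genes, which act where keratinocytes cornify, 11 were tested, and 4 were called at 24 h in each exposure, all lower. S100A8 and S100A9, the calprotectin subunits, changed by -2.73 and -2.04 in mock cells (limma adjusted p = 1.19e-05 and 3.791e-05) and by -2.41 and -1.87 in pollen cells. TGM1, the transglutaminase of the cornified envelope, changed by -1.16 and -0.45. At 6h50 min 3 were called in mock and 7 in pollen cells, all lower, with SPRR3 at least 3.09-fold lower in pollen cells. The list's median at 24 h was -0.63 and -0.55. None of the linker, filament, factor or squamous genes was called between pollen and mock at any time in limma.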

How the data were processed

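Members and gene lists were chosen with earlier results of these data known. The authors deposited, per array, spot intensities from Agilent Feature Extraction 11.0.1.1, background-subtracted and detrended within the array, with probe positions on hg19. They also deposited a table of log2 values, quantile normalized without background subtraction as its values show. It was used as an alternative: of 29 columns compared, 23 matched their own array best and the other 6, at 24 h, another array of their group.

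From the intensities, spots marked as outliers were left out, replicate spots averaged, log2 taken, and the 75th percentile of each array subtracted, over 33873 probes on both array designs. Of 58201 probes, 32100 (24518 gene names) were tested, those well above background in each array of some group. In R 4.3.3, with data.table (version 1.17.8), limma 3.58.1 (lmFit, eBayes) fitted 10 group means to 30 arrays, with 20 residual and 2.35 prior degrees of freedom. Adjustment was Benjamini-Hochberg over all tested probes, and the fit was tested on simulated data. The number of arrays limits the precision. No spot was saturated, and no member spot was marked on the arrays of the main design. Marks on member spots were not listed for the array of the other design.

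For a gene with several probes, the one of highest mean level stands for it, and the others are given too. Of each list, genes called in a comparison were named, up to 5 by size of change. For members spanning at least 1 log2 unit, the 2 closest profiles were named. Pollen and mock arrays of the same replicate number deviated together at 10 min (correlations 0.454, 0.422 and 0.413), 2h25 min (0.615, 0.478 and 0.581) and 24 h (0.720, 0.285 and 0.338). They enter as pairs only in the fit with the replicate number as a block. The main fit is unpaired, as are all pollen-against-mock intervals and the p-values given without that block. At 55 min and 6h50 min they share a number, and the labels do not say that it marks a run. Labels do not say whether arrays of a group came from separate cultures, so p-values measure the spread between arrays.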

Additional observations from a re-analysis of the deposited data

How the results depend on the processing

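No member probe changed direction in a called comparison under any alternative. Of 182 combinations of member probe and comparison, the call changed in 26 with the percentile over each array's own probes, 16 with quantile normalization, 17 with normexp and quantile normalization, 9 with the deposited log2 values, 4 without a filter on dim probes, 9 with array weights and 10 with the slide as a random block. It changed in 17 of 140 with the slide as a fixed block, and in 0 with probes above background on all arrays, with only the arrays of a time, within a slide, and with dim areas left out. Against 10 min, the count of member probes called, 10 and 9 in mock cells at 6h50 min and 24 h and 1, 6 and 10 in pollen cells at 2h25 min, 6h50 min and 24 h, became 1, 5, 0, 1 and 3 with the percentile over own probes. Under it the median of all probes at 55 min in pollen against mock moved to -0.60, since 1 array there is of another design. That median was -0.53 with quantile normalization, -0.27 with normexp and quantile normalization, and -0.01 as reported. All arrays share 1 estimate of the spread per probe, so the shift also bears on comparisons of other times. With quantile normalization the mock count at 6h50 min was 3 and the pollen counts at 2h25 min and 6h50 min 0 and 3, and with normexp 5, 0 and 3; the median of all probes at 6h50 min in mock cells, -0.17 as reported, was 0.02 under both. With the slide as a random block the mock count at 6h50 min was 4. With it as a fixed block, which leaves out 6h50 min, the 24 h counts were 2 and 1. In that fit 1 array, replicate 1 of mock at 55 min, is the only link of slide 1 to the other slides. The pollen count at 2h25 min was 0 with the slide in either form and without a filter. Array weights gave 14 in mock and 12 in pollen cells at 24 h, and the deposited values gave 12 and 13. Either gave 1 in mock cells at 2h25 min. Leaving out 1 array at a time gave 6 to 10 and 8 to 10 in mock cells at 6h50 min and 24 h, 0 to 0, 4 to 6 and 9 to 12 in pollen cells at 2h25 min, 6h50 min and 24 h, and 0 to 0 in every other comparison; the lowest at 6h50 min, 6, was without the 10 min mock replicate 3 array. Beyond the members, PKP1 at 6h50 min in mock cells turned to 0.024 with normexp and 0.027 with the deposited values, and with the slide as a fixed block GRHL3 at 24 h in pollen cells turned to -0.072 and KRT23 at 24 h to 0.85 in mock and 1.14 in pollen cells. The KRT38 call between pollen and mock at 24 h was lost as given above. The causes were not tested.

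With the replicate number as a block, no call of a member between pollen and mock changed at the times where numbers pair the arrays. At 6h50 min, where they share only a number (correlations 0.056, 0.199 and -0.041), the block gave 1 member probe called in pollen against mock, KRT6A (0.64, limma adjusted p = 0.02878), and 144 of all probes in place of 14. As a random block it added the 6h50 min call of KRT19 and the 24 h call of the downstream KRT14 probe, both in pollen cells (limma adjusted p = 0.03934 and 0.044).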
